A study of Caenorhabditis elegans with 11 samples.

Results

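RNA interference (RNAi) against prp-31 in wild-type Caenorhabditis elegans larvae was compared with RNAi against gfp, a gene the worm does not have. The genes described are those of the authors' 2 deposited lists for the wild-type strain N2, a higher table and, with 66 genes, a lower table. Together they hold 475 genes, of 1106 entries in all deposited tables, and the comparison rests on 2 of the 11 libraries of the series. For each gene the level with prp-31 RNAi was set against the level with gfp RNAi as log2((prp-31 + 1)/(gfp + 1)), in FPKM, a read count scaled by gene length and library size. All fold values below are on this scale, which understates the differences of low genes. Genes listed at exactly 0 in either library were set aside.

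The study fed worms bacteria carrying RNAi clones against 3 splicing factor genes, prp-31, prp-6 and prp-8, or against gfp, and sequenced poly(A)-enriched RNA from whole animals. Wild-type N2 and smg-1(r861) mutants were put on the RNAi bacteria as synchronised L1 animals, kept at 20 °C for 24 hours and labelled as L3. A further set, glp-4(bn2) adults kept at 25 °C and fed the clones for 48 hours, is not compared here. The N2 animals with RNAi against prp-31, prp-6, prp-8 and gfp are each 1 library, as are the smg-1 groups, and no difference between them could be tested. All N2 groups carry no mutation, and their control animals also ate an RNAi clone.

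PRP31 joins the U4/U6 and U5 particles into the tri-snRNP, the complex that enters the spliceosome before introns are removed. PRP6 bridges the same particles, and PRP8 is the large U5 protein at the heart of the catalytic spliceosome. Larvae of this worm build a new collagen cuticle in each stage and shed the old one at the moult, and many genes for cuticle proteins, their processing enzymes and the hedgehog-related proteins of the skin are switched on and off with each moulting cycle. The age of the animals within the L3 stage is not recorded in the labels.

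The authors chose the lists on these samples: per their deposited tables, each listed gene has a P-value of at most 0.01 with the prp-31, prp-6 and prp-8 libraries pooled against gfp. The prp-31 library is part of that pool, so the direction of a gene in its table is not independent evidence. In the same pooled comparison the q-value was below 0.05 for 34 higher-table genes. Most genes of that table did not reach this limit. Of the 111 higher-table genes at least 2-fold higher with prp-31 RNAi, 12 had a q-value below 0.05. Of the 10 lower-table genes at least 2-fold lower, 2 did. Genes outside the tables have no value here, so the identity of the animals could not be checked. A marker gene appears only if it passed the P-value limit of the pooled comparison. Of the marker lists, 3 skin genes (rol-6, nhr-25 and sqt-3), 2 pharynx genes (abu-12 and abu-13), 2 germline genes (cpg-2 and glh-2) and 1 sperm gene (msp-64) are in the tables, and no muscle, neuron or intestine marker is.

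With a pseudocount of 1 FPKM, differences with prp-31 RNAi were mostly under 2-fold and close in median size in both tables. Collagens and other cuticle genes made up 6 of the 10 largest differences among higher-table genes with a public name. The collagen list holds 23 and the other cuticle list 16 of the 379 genes analysed there. List members were found by public name, so their share of the named genes is larger than their share of the 379. Of the 379 higher-table genes with a value above 0 in both libraries, 363 were above their gfp level and 16 below it. Their median log2 difference was 0.69, or 1.61-fold higher, with quartiles of 0.44 and 1.09. At least 2-fold higher levels were found for 111 genes, 29.3% of those analysed, and another 252 were higher by less than 2-fold. The largest difference in the higher table was 3.64-fold.

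Of the 63 lower-table genes analysed, 62 were below gfp, and 10 of them, 15.9%, were at least 2-fold lower. The median was -0.68, or 1.61-fold lower. The collagen gene col-93 was the single gene above gfp. On this scale the medians of the tables lay at nearly equal distances from 0, which other pseudocounts changed. Shifting all log2 differences to set the higher median to 0 would set the lower median to -1.37. The tables were chosen for opposite directions with this library in the pool, so these medians cannot check the scale of the library. The 2-fold boundary ran through a continuous distribution. K02E7.1, grl-22 and lips-7 lay just inside it, at 2.73, 4.37 and 16.1 FPKM with prp-31 RNAi against 0.864, 1.68 and 7.5 FPKM with gfp RNAi. D1007.13, mam-3 and F08G2.5 lay just outside, at 10.8, 6.08 and 87.5 FPKM with prp-31 RNAi against 4.91, 2.57 and 43.7 FPKM with gfp RNAi.

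**Figure D1:**
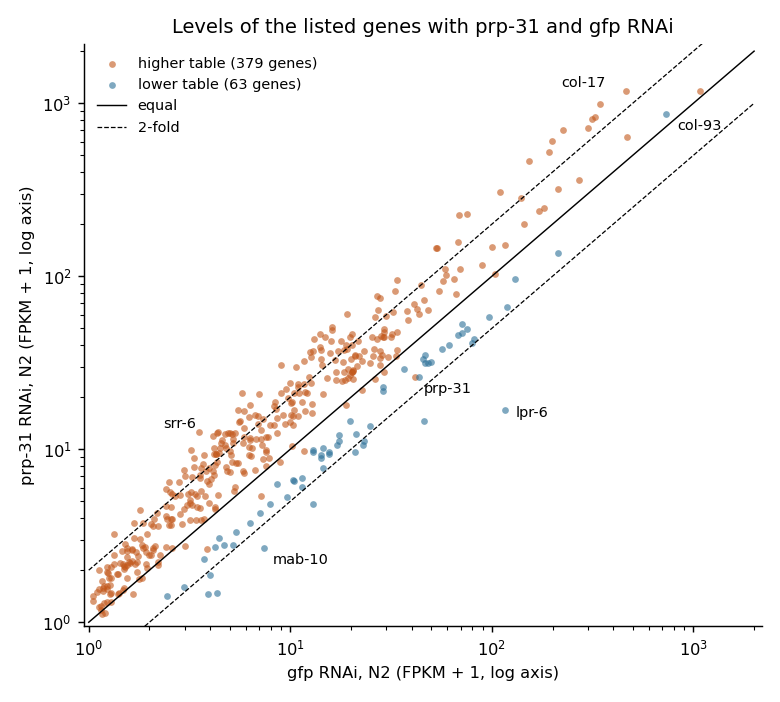
Level of each analysed gene with prp-31 RNAi (vertical axis, FPKM + 1, log scale) against its level with gfp RNAi (horizontal axis, FPKM + 1, log scale), N2. Each point is 1 gene from 1 library a side; the solid line marks equal levels and the dashed lines 2-fold differences. Most of the 379 higher-table genes sit between the solid and the upper dashed line, 111 of them on or above the dashed line, and lpr-6 stands farthest below.

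The prp-31 transcript itself was lower in the animals fed its own clone. It measured 25.3 FPKM with prp-31 RNAi, 133 under prp-6, 144 under prp-8 and 40.6 under gfp RNAi. The value with prp-31 RNAi was the lowest of the 4 libraries, 1.58-fold below gfp (log2 -0.66), and it was the lowest difference among the 379 analysed genes of the higher table. The gene, on chromosome I (5127828 to 5129612 in the deposited coordinates, of a build that the sources used here do not name), stood in the higher table through the other knockdowns. In smg-1 mutants prp-31 measured 24.0 FPKM with prp-31 RNAi and 31.4 with gfp RNAi.

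Collagens of the cuticle formed the largest named group. Of 24 collagen genes in the higher table, 23 could be analysed; all 23 were above gfp and 14 were at least 2-fold higher, with a median of 1.17. Over all analysed genes of the higher table, 363 of 379 were above gfp, 111 (29.3%) were at least 2-fold higher and the median was 0.69. Summed over the 23 genes, collagen transcripts reached 6295 FPKM with prp-31 RNAi, 19479 under prp-6, 2250 under prp-8 and 2760 under gfp RNAi, which put prp-31 RNAi 2.28-fold above gfp. The sums include col-17, at 1183 FPKM with prp-31 RNAi and 464 with gfp RNAi, whose difference is uncertain for a reason given below. In 19 of the 23 genes the prp-31 level lay above the prp-8 level and below the prp-6 level. Over 405 higher-table genes with a value above 0 in all knockdowns, the prp-31 level lay between the others, in either order, in 213. Because the RNA came from whole worms, a change in the number of cells of a type and a change in RNA per cell cannot be told apart.

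Among single collagens, col-54 had 229 FPKM with prp-31 RNAi, 428 under prp-6, 3.18 under prp-8 and 74.2 under gfp RNAi. It was 3.06-fold higher with prp-31 RNAi than with gfp RNAi, while the prp-8 library held the lowest value by far. The values of col-58 were 47.7, 93.1 and 0.876 FPKM with prp-31, prp-6 and prp-8 RNAi, against 15 with gfp RNAi. It followed the same order of libraries and was 3.04-fold higher. The gene deposited as col-182 had the largest difference of any higher-table gene with a public name, 3.39-fold, with 29.6 FPKM with prp-31 RNAi against 8.03 with gfp RNAi. Current annotation calls it a pseudogene.

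The body-shape collagens dpy-5, dpy-13 and dpy-4, whose loss makes worms short and fat, were among the most abundant transcripts in the tables. The level of dpy-5 was 833 FPKM with prp-31 RNAi, 2241 under prp-6, 203 under prp-8 and 324 under gfp RNAi. That of dpy-13 was 806 FPKM with prp-31 RNAi against 314 with gfp RNAi, and that of dpy-4 was 719 against 297. All 3 were between 2.41- and 2.57-fold higher. A second set of collagens that shape the body, sqt-1, sqt-2, sqt-3 and rol-8, differed less. Their levels with prp-31 RNAi were 237, 199, 359 and 150 FPKM, against 170, 143, 269 and 115 FPKM with gfp RNAi. These are 1.30- to 1.39-fold differences, and with prp-6 RNAi the same 4 genes reached 720 to 1801 FPKM. The collagen rol-6, whose dominant mutation makes worms roll, lay between the sets at 282 FPKM with prp-31 RNAi against 138 with gfp RNAi.

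The collagens col-17 and col-73 lie within 10 kb of each other on chromosome II. With prp-31 RNAi col-73 measured 994 FPKM, against 342 with gfp RNAi, and the other two N2 libraries had 2046 (prp-6 RNAi) and 102 (prp-8 RNAi). For col-17 the values were 1183 FPKM with prp-31 RNAi and 464 with gfp RNAi. The authors' pooled table gives 240 FPKM for the same gfp library, a far lower ratio to the single-library value than the median of 1.21 over 435 genes, so the 2.55-fold difference of col-17 is uncertain. The gene col-93 has the same problem in larger measure. It was listed at 868 FPKM with prp-31 RNAi, 256 under prp-6, 81.3 under prp-8 and 730 under gfp RNAi, whereas the authors' deposited table gives 63.0 for the pooled gfp value. The collagen col-90 was set aside: it was listed at 0 with prp-31 RNAi, 3129 under prp-6, 203 under prp-8 and 305 under gfp RNAi.

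Proteins that process or line the cuticle were measured in 16 further higher-table genes, of which 15 were above gfp and 6 at least 2-fold higher. This share and the median of 0.73 are near the 29.3% and 0.69 of the whole higher table. The astacin-type metalloproteases of the nas family, secreted enzymes that cut matrix proteins, contributed 4 of the 6. The level of nas-23 was 11.5 FPKM with prp-31 RNAi, 21.5 under prp-6, 0.169 under prp-8 and 3.35 under gfp RNAi, and it was 2.88-fold higher with prp-31 RNAi than with gfp RNAi. For nas-12 the levels were 5.45 FPKM with prp-31 RNAi and 1.5 with gfp RNAi, for nas-14 they were 11.3 and 4.12, and for nas-15 they were 16.7 and 7.28. All 4 genes were thus higher with prp-31 RNAi, by 2.14- to 2.88-fold, and the fifth member, nas-13, was 1.66-fold higher. The highest fold of this list belonged to dao-6, with 50.1 FPKM under prp-31 RNAi against 15.1 under gfp RNAi.

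The moulting genes mlt-9 and mlt-10 differed from this pattern in size. Levels of mlt-10 were 46.6 FPKM with prp-31 RNAi, 145 under prp-6, 27.1 under prp-8 and 28.1 under gfp RNAi. Those of mlt-9 were 17.1 FPKM with prp-31 RNAi, 97.5 under prp-6, 31 under prp-8 and 18 under gfp RNAi. The prp-31 library was thus 1.63-fold above gfp for mlt-10 and slightly below gfp for mlt-9, whose prp-6 level was the highest of the 4. The gene mab-7, which encodes a membrane protein needed to shape the sensory rays of the male tail, is in no list and was 3.00-fold higher, at 20.0 FPKM with prp-31 RNAi against 5.98 with gfp RNAi. A further gene outside the lists, ora-1, had 75.5 FPKM with prp-31 RNAi against 26 with gfp RNAi.

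Hedgehog-related genes encode secreted proteins made largely by the skin, and patched-related (ptr) genes encode membrane proteins that resemble the hedgehog receptor of other animals; both groups take part in moulting. In the higher table, 15 of 16 were above gfp, as were 363 of all 379 genes. At least 2-fold higher were 7 of the 16, against 29.3% of all, and the median was 0.91 against 0.69. The 5 ground-like grl genes had log2 differences of 0.67 to 1.48, the 3 warthog wrt genes 0.55 to 1.31 and the 6 ptr genes 0.68 to 1.12. The largest was grl-16, at 305 FPKM with prp-31 RNAi, 521 under prp-6, 5.45 under prp-8 and 109 under gfp RNAi. Its levels ranked in the same order as those of col-54. The level of wrt-8 was 8.25 FPKM with prp-31 RNAi and 2.74 with gfp RNAi. The exception was qua-1, a hedgehog-related gene needed for moulting, at 27 FPKM with prp-31 RNAi against 28.3 with gfp RNAi.

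Smaller groups are given beside the same 29.3% and median of 0.69 for all higher-table genes. Of 5 abu and pqn genes, whose proteins carry glutamine- and asparagine-rich stretches and several of which line the pharynx, 5 were above gfp and 4 at least 2-fold higher (median 1.13). The gene abu-12 led them with 11.4 FPKM with prp-31 RNAi against 3.90 with gfp RNAi. Of 5 lipid metabolism genes all were above gfp and 4 at least 2-fold higher (median 1.03). They include acdh-6, an acyl-CoA dehydrogenase gene, at 13.3 FPKM with prp-31 RNAi against 4.57 with gfp RNAi, and the gene of another fatty acid oxidation enzyme, hacd-1, at 13.9 against 6.33. The lipase-like gene lips-9 had 10.4 FPKM with prp-31 RNAi against 3.59 with gfp RNAi.

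These 5 lists were joined after their values were seen, which makes the following a description. Among lists of at least 5 analysed higher-table genes, they had the highest medians, 0.73 to 1.17. Innate immunity came next at 0.69. Joining the top lists favours a larger 2-fold share than in the remaining genes, so the contrast cannot show an excess. Together the 5 lists hold 65 analysed genes, of which 35 (53.8%) were at least 2-fold higher with prp-31 RNAi. Of the other 314 higher-table genes, 76 (24.2%) were. The prp-31 level exceeded the prp-8 level in 55 of the 65 genes and in 139 of the 313 others that could be compared. It exceeded the prp-6 level in 1 of the 65.

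**Figure D2:**
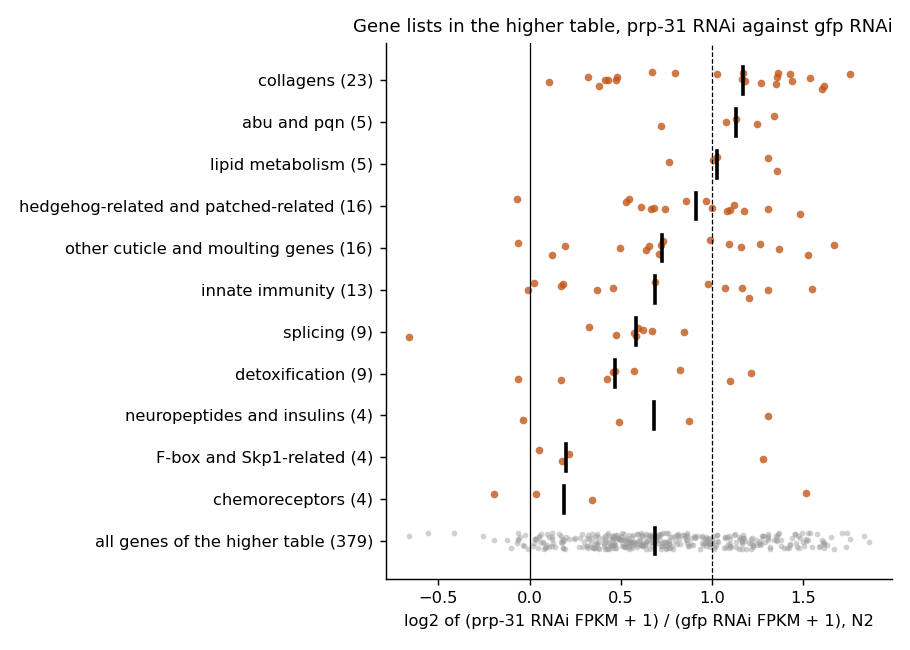
Log2 difference between prp-31 RNAi and gfp RNAi in N2 (horizontal axis) for genes of the higher table, by gene list (rows, with the number analysed). Points are genes, black bars are medians over genes, the solid line marks 0 and the dashed line 2-fold. The collagen median (1.17) lies to the right of the 2-fold line, and the splicing genes sit between 0 and 1 except prp-31 itself at -0.66.

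Genes of the splicing machinery formed a tight group below the 2-fold line. The splicing list has 9 genes in the higher table, and a search by current gene symbols, made after values were seen, added 12 more spliceosome and exon junction genes. Without prp-31 itself, all 20 were above gfp, by log2 0.33 to 0.85 with a median of 0.60, and none reached 2-fold. Of all 379 analysed higher-table genes, 363 were above gfp and 29.3% reached 2-fold, with a median of 0.69. The U5 GTPase gene eftu-2 had 81.5 FPKM with prp-31 RNAi, 157 under prp-6, 168 under prp-8 and 53.7 under gfp RNAi. Its levels were lowest with gfp RNAi and nearly equal in the other two knockdowns. The Sm protein gene snr-5, part of the ring that forms the core of each snRNP, had 109 FPKM with prp-31 RNAi against 68.2 with gfp RNAi. The RNA helicase gene ddx-23, whose product takes part in spliceosome activation, had 43.3 FPKM with prp-31 RNAi against 27.8 with gfp RNAi. Among genes with older sequence names, eif-4A3, a core protein of the exon junction complex, had 48.4 FPKM with prp-31 RNAi against 28.1 with gfp RNAi. In 19 of these 20 genes the prp-31 level was the lowest of the 3 knockdowns. It exceeded the prp-8 level only for cyn-17 and the prp-6 level for none. Over the higher table the prp-31 level was the lowest in 190 of 405 genes with a value above 0 in all 3. The cyclophilin gene cyn-17 measured 10.4 FPKM with prp-31 RNAi, 30.7 under prp-6, 4.71 under prp-8 and 5.32 under gfp RNAi.

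The DNA damage kinase gene atl-1, the worm counterpart of ATR, had 14.7 FPKM with prp-31 RNAi, 32 under prp-6, 55.0 under prp-8 and 8.17 under gfp RNAi. It was 1.72-fold higher with prp-31 RNAi than with gfp RNAi, and its prp-31 level was the lowest of the knockdowns. Of the cell death genes, egl-1, whose BH3-only product starts apoptosis, had 1.02 FPKM with prp-31 RNAi, 1.23 under prp-6, 9.41 under prp-8 and 0.497 under gfp RNAi. At these levels the prp-31 value was 1.35-fold above gfp on the log2(value + 1) scale, and the authors' pooled table lists gfp at 0 for this gene. The channel-like gene ced-11 had 3.26 FPKM with prp-31 RNAi, 7.06 under prp-6, 3.56 under prp-8 and 1.17 under gfp RNAi, 1.96-fold above gfp. In the authors' deposited table, which pools the 3 knockdowns, the q-values were 0.0268 for atl-1 and egl-1 and 0.0509 for ced-11.

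Of 9 detoxification genes in the higher table, 8 were above gfp and 2 at least 2-fold higher (median 0.47), a share near the 29.3% of the whole higher table. The glutathione S-transferase gene gst-24, of a family that conjugates toxic compounds to glutathione, had 62.4 FPKM with prp-31 RNAi, 263 under prp-6, 523 under prp-8 and 26.4 under gfp RNAi. It was 2.32-fold above gfp and far below both other knockdowns. The cytochrome P450 gene deposited as cyp-34A4 had 4.53 FPKM with prp-31 RNAi against 1.59 with gfp RNAi. The transferase gene gst-15 had 7.49 FPKM with prp-31 RNAi against 7.87 with gfp RNAi.

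Of 13 innate immunity genes, 12 were above gfp and 5 at least 2-fold higher. Their median of 0.69 was that of the whole higher table, and 5 of 13 is near its 29.3%, so the counts show nothing about this list. The C-type lectin genes clec-230 and clec-229 lie within 10 kb of wrt-8 on chromosome V. Levels of clec-230 were 35.6 FPKM with prp-31 RNAi, 132 under prp-6, 2.93 under prp-8 and 11.5 under gfp RNAi. It was 2.92-fold above gfp, and clec-229 was 2.31-fold above, at 5.45 FPKM with prp-31 RNAi against 1.80 with gfp RNAi. The lysozyme genes, whose products attack bacterial walls, differed among themselves. With prp-31 RNAi lys-1, lys-3, lys-4 and lys-7 had 640, 14.5, 102 and 115 FPKM, against 466, 5.90, 103.1 and 88.4 FPKM with gfp RNAi. Only lys-3 of these 4 was at least 2-fold higher, and lys-4 was at its gfp level to within 1.01-fold. The antimicrobial peptide gene nlp-34, made in the skin, had 81.2 FPKM with prp-31 RNAi against 32.2 with gfp RNAi.

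The other small lists hold few genes each. Of 4 F-box genes, whose products pick proteins for destruction, fbxa-163 was 2.43-fold higher at 2.24 FPKM with prp-31 RNAi against 0.334 with gfp RNAi, and the other three had log2 differences of 0.05 to 0.22. Of 4 chemoreceptor genes, srr-6 was 2.86-fold higher at 11.4 FPKM with prp-31 RNAi against 3.34 with gfp RNAi, whereas srg-31 was below gfp at 0.456 against 0.668. The insulin-like genes ins-11, ins-35 and ins-33 had 2.09, 27.6 and 24.6 FPKM with prp-31 RNAi, against 0.681, 19.4 and 25.3 FPKM with gfp RNAi. The nuclear receptor gene nhr-25, needed for moulting and skin differentiation, had 10.7 FPKM with prp-31 RNAi against 6.55 with gfp RNAi. No deposited gene name in either table matched the lists of mRNA decay, heat shock, ribosomal protein or ribosomal RNA genes. None matched those of proteasome and ubiquitin genes or of tyrosine kinases and phosphatases either. Genes deposited under a sequence name only could be missed by this matching.

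The lower table was led by lpr-6, which encodes a lipocalin-related protein of a family that shapes the matrix on the outside of epithelia. It had 15.9 FPKM with prp-31 RNAi, 46.5 under prp-6, 106 under prp-8 and 115 under gfp RNAi, on chromosome X (11059994 to 11061868 in the deposited coordinates). The prp-31 library was 6.88-fold below gfp, and the prp-8 library was close to gfp. The authors' deposited table gives a pooled value of 63.0 FPKM for the knockdowns against 139 for gfp, with a q-value of 0.288. A related gene in the higher table, lpr-7, lay above gfp, with 7.26 FPKM under prp-31 RNAi against 2.70 under gfp RNAi.

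The next genes of the lower table with a public name include bus-1 and mab-10, which are tied to the cuticle or its moult. The gene bus-1, mutants of which resist a bacterium that sticks to the cuticle, had 0.472 FPKM with prp-31 RNAi, 1.11 under prp-6, 1.30 under prp-8 and 3.33 under gfp RNAi. The gene mab-10, a cofactor that acts late in larval life to stop moulting, had 1.69 FPKM with prp-31 RNAi, 1.75 under prp-6, 3.16 under prp-8 and 6.38 under gfp RNAi. It was 2.74-fold lower with prp-31 RNAi than with gfp RNAi. In the lower table lpr-6, bus-1 and mab-10 were the 3 genes whose prp-31 level was the lowest of all knockdowns. The nuclear receptor gene nhr-155 had 0.879 FPKM with prp-31 RNAi, 0.142 under prp-6, 0.0814 under prp-8 and 2.98 under gfp RNAi. The F-box gene fbxa-72 had 10.1 FPKM with prp-31 RNAi against 22.1 with gfp RNAi. Outside the rule for named genes, D1086.3 was named after its values were seen, as the second largest difference, with 13.6 FPKM with prp-31 RNAi against 45.1 with gfp RNAi.

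**Figure D3:**
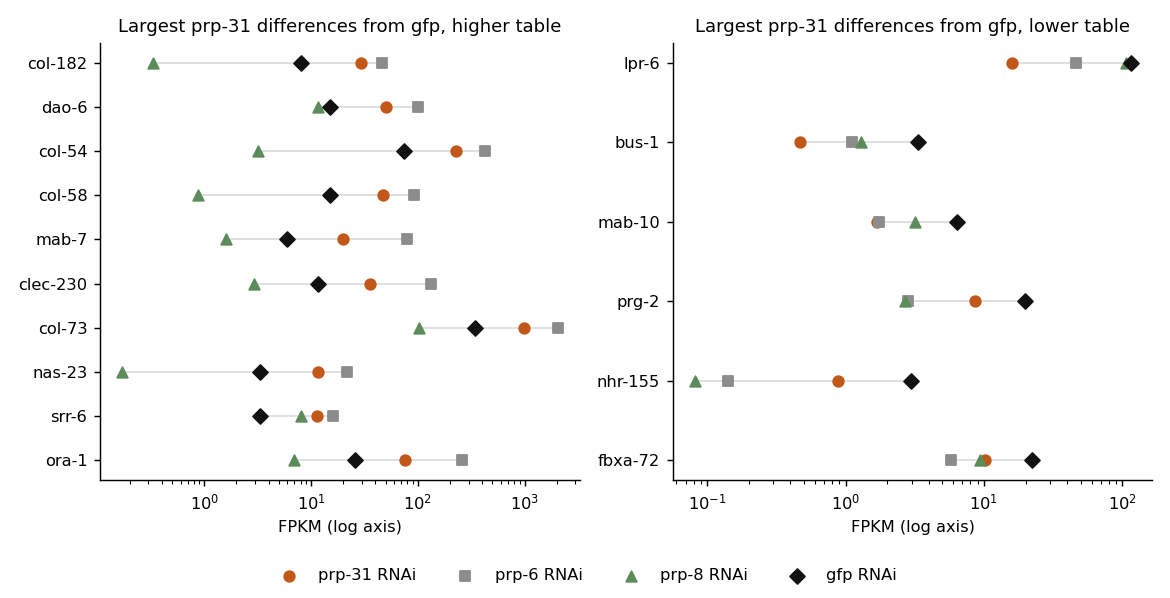
Levels in the 4 N2 libraries (horizontal axis, FPKM, log scale) of the 10 higher-table and 6 lower-table genes with a public name and the largest difference between prp-31 and gfp RNAi. Each marker is 1 library. In the left panel prp-31 RNAi lies between gfp and prp-6 RNAi for all 10 genes, and prp-8 RNAi lies below gfp for all but srr-6. In the right panel gfp is highest for all 6 genes.

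Genes of the germline and of cell division made up a further share of the lower table. In 4 of the 5 named first the prp-31 level was above those of both other knockdowns. The same held for 54 of 61 lower-table genes with a value above 0 in all knockdowns, so this count shows nothing particular to them. The gene deposited as prg-2, a Piwi-type Argonaute that current annotation calls a pseudogene, had 8.64 FPKM with prp-31 RNAi, 2.83 under prp-6, 2.69 under prp-8 and 19.8 under gfp RNAi. Its near-identical relative prg-1 could share reads with it. The Argonaute gene wago-1 had 20.7 FPKM with prp-31 RNAi against 28 with gfp RNAi, and the germline helicase gene glh-2 had 5.86 against 10.4. The phosphatase gene cdc-25.1, which drives germline cell division, had 8.61 FPKM with prp-31 RNAi, 5.14 under prp-6, 5.08 under prp-8 and 14.6 under gfp RNAi. The kinase gene plk-2, which acts in meiotic chromosome pairing, had 6.77 FPKM with prp-31 RNAi, 3.59 under prp-6, 7.41 under prp-8 and 13.6 under gfp RNAi. Of these 5 genes, prg-2 was past 2-fold and the other four were 1.34- to 1.88-fold lower. The other germline marker in the tables, the eggshell gene cpg-2, was in the higher table at 9.34 FPKM with prp-31 RNAi against 5.21 with gfp RNAi. The core histone gene his-32 had 8.26 FPKM with prp-31 RNAi against 13.2 with gfp RNAi, and the linker histone gene hil-7 had 4.37 against 2.44. The cyclophilin gene cyn-9, the splicing list's single lower-table member, had 4.29 FPKM with prp-31 RNAi against 8.66 with gfp RNAi.

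Membrane and metabolic genes of the lower table lay within 2-fold of gfp on the log2(value + 1) scale. The aquaporin gene aqp-8, a water channel of the excretory system, had 65.8 FPKM with prp-31 RNAi, 21.2 under prp-6, 46.5 under prp-8 and 118 under gfp RNAi. The bestrophin-type channel gene best-14 had 40.2 FPKM with prp-31 RNAi against 79.0 with gfp RNAi. The glucuronosyltransferase genes ugt-35 and ugt-26 had 0.424 and 37.2 FPKM with prp-31 RNAi, against 1.46 and 55.7 FPKM with gfp RNAi. The gene deposited as hpo-24, placed in the immunity list by its name, now carries the symbol alg-5, an Argonaute, and had 2.07 FPKM with prp-31 RNAi against 3.42 with gfp RNAi. The collagen col-139 was low in all libraries, at 0.599 FPKM with prp-31 RNAi against 1.98 with gfp RNAi.

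Set beside the other knockdowns, prp-31 RNAi gave the smallest lower-table median and a higher-table median close to that of prp-8 RNAi. The 3 comparisons share the gfp library, so their values are given side by side only. In the higher table the median log2 difference from gfp was 0.69 for prp-31, 2.12 for prp-6 and 0.61 for prp-8. In the lower table the medians were -0.68 for prp-31, -1.63 for prp-6 and -1.41 for prp-8.

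The knockdown libraries can be compared directly, without gfp. Over 405 higher-table genes with a value above 0 in all 3, the prp-31 level was the highest in 2 (ins-11 and D2096.5), between the others in 213 and the lowest in 190. It was above the prp-8 level in 206 genes (50.9%) and above the prp-6 level in 11. The median log2 ratio was -1.20 for prp-31 over prp-6 and 0.04 for prp-31 over prp-8. Over 61 lower-table genes the prp-31 level was the highest in 54, between the others in 4 and the lowest in 3. There the median log2 ratios were 0.88 over prp-6 and 0.81 over prp-8.

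Genes with prp-31 levels farthest above both other knockdowns were all in the lower table. Y53F4B.23 had 7.95 FPKM with prp-31 RNAi, 0.756 under prp-6, 0.933 under prp-8 and 13.1 under gfp RNAi. F18E9.3 had 46.1 FPKM with prp-31 RNAi, 9.21 under prp-6, 9.88 under prp-8 and 70.4 under gfp RNAi. The dioxygenase gene haao-1, of the kynurenine pathway, had 28 FPKM with prp-31 RNAi, 9.47 under prp-6, 6.51 under prp-8 and 35.6 under gfp RNAi. For these 3 genes the prp-31 library was nearest to gfp. Genes with prp-31 levels farthest below both were in the higher table. F08G2.5 had 87.5 FPKM with prp-31 RNAi, 717 under prp-6, 818 under prp-8 and 43.7 under gfp RNAi. F19B10.13 had 8.85 FPKM with prp-31 RNAi, 77.1 under prp-6, 115 under prp-8 and 2.22 under gfp RNAi. Both were above gfp in every knockdown, F19B10.13 by 3.06-fold with prp-31 RNAi.

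**Figure D4:**
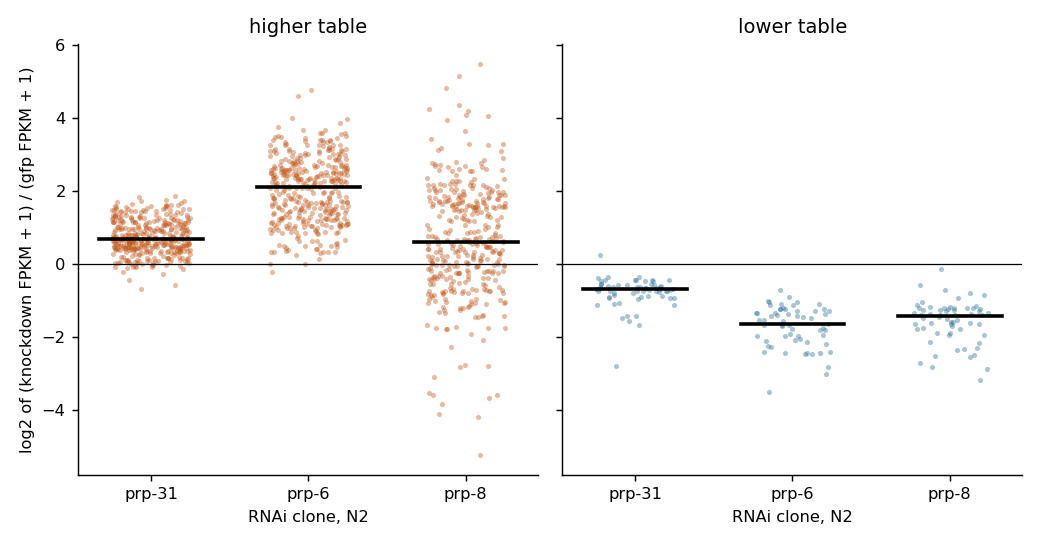
Log2 difference from gfp RNAi (vertical axis, FPKM + 1) of each gene in the higher table (left) and lower table (right) with prp-31, prp-6 and prp-8 RNAi in N2. Points are genes, black bars are medians over genes, and all 3 columns use the same gfp library. The prp-31 points are the most compact, with medians of 0.69 and -0.68, and the prp-8 points of the higher table spread to both sides of 0.

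The 111 genes at least 2-fold higher with prp-31 RNAi were set beside the other 268 of the higher table. Their prp-31 level exceeded the prp-8 level in 104 of 111 and the prp-6 level in none, and in the other genes it exceeded the prp-8 level in 90 of 267. Choosing genes by a high prp-31 level favours this order over prp-8. They were also more abundant, with a median of 20.0 FPKM with prp-31 RNAi and 7.5 with gfp RNAi, against 6.58 and 4.07 FPKM in the other genes. The pseudocount of 1 FPKM keeps genes of low level from reaching 2-fold, so abundance and the threshold are linked. Of the 111, 54 have public names and 44 belong to a list. These counts were not made for the other 268 genes, so they show no excess or lack. The largest of all were T24F1.7, at 20.0 FPKM with prp-31 RNAi against 4.77 with gfp RNAi, and R11G11.6, at 11.6 against 2.53, both named after their values were seen.

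Splicing factors act on introns, and intron numbers of the groups are given without a test. In Ensembl annotation the median was 4 introns for the 2-fold higher genes, 4.5 for the other higher-table genes, 5 for the lower table and 4 for all 19985 protein-coding genes. At most 1 intron was annotated for 21 of 110 placed 2-fold genes (19.1%) and 29 of 266 others (10.9%). Another 2-fold gene lay within 10 kb for 21 of the 110 placed 2-fold genes (19.1%). They form 12 pairs that include col-17 with col-73, F46C8.8 with col-174, and C02E7.6 with H23N18.5. Of the 266 others, 34 (12.8%) had another gene of those 266 within 10 kb. Each search stayed within its own group, and the groups differ in size, so the 2 shares are not like measures. Across chromosomes the share of higher-table genes at least 2-fold higher ran from 24% on V to 37.0% on II.

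The 16 higher-table genes below gfp were all within 2-fold of it. After prp-31 the lowest were Y49G5A.1, at 1.64 FPKM with prp-31 RNAi, 3.94 under prp-6, 37.2 under prp-8 and 2.88 under gfp RNAi, and R09A1.3, at 4.35, 17.6 and 29.5 FPKM with prp-31, prp-6 and prp-8 RNAi, against 6.13 with gfp RNAi. Both had their highest value with prp-8 RNAi. The gene with the highest mean level over the prp-31 and gfp libraries, Y119D3B.21, lay near gfp in the prp-31 library alone. It had 1176 FPKM with prp-31 RNAi, 3001 under prp-6, 7187 under prp-8 and 1079 under gfp RNAi.

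Of the 33 genes set aside, 28 higher-table genes were listed at 0 with gfp RNAi. The snoRNA gene Y65B4A.11 was listed at 274 FPKM with prp-31 RNAi, 591 under prp-6, 248 under prp-8 and 0 under gfp RNAi. Such small RNAs lack a poly(A) tail, and the libraries were poly(A) enriched. The 26 others with a value above 0 with prp-31 RNAi were between 0.0853 and 1.75 FPKM there, with a median of 0.394. B0464.6 was listed at 0 in all 3 knockdowns and at 22.2 FPKM with gfp RNAi, while the authors' deposited table gives a pooled knockdown value of 64.6. The 3 lower-table genes set aside, msp-64, nspd-2 and K08D12.7, were at 0 with prp-31 RNAi and at most at 1.07 FPKM with gfp RNAi.

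In smg-1 mutants nonsense-mediated decay, which destroys transcripts with early stop codons, is blocked. Their prp-31 library has its own gfp library and its own tables of 485 entries. The N2 and smg-1 tables share 147 genes, 30.9% of the N2 genes and 30.3% of the smg-1 entries, and 141 could be analysed in both. For 118 genes in the higher table of both strains the median log2 difference with prp-31 RNAi was 0.48 in N2 and 0.41 in smg-1, and 107 of them differed by less than 0.5 between strains. Ranked by the smaller of a gene's differences in the strains, the top 4 were F19B10.13, fbxa-163, T04A6.5 and gst-24. For gst-24 the smg-1 levels were 56.1 FPKM with prp-31 RNAi and 22.9 with gfp RNAi, close to the N2 levels given above. For 17 genes in the lower table of both strains the medians were -0.64 in N2 and -0.39 in smg-1.

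Of the 111 genes at least 2-fold higher in N2, 15 (13.5%) were in a smg-1 table, 11 in the higher and 4 in the lower one. Of the other 268 higher-table genes, 111 (41.4%) were, a difference in shares that was not tested. There were 6 genes in the higher table of N2 and the lower table of smg-1: grl-5, H23N18.5, C38C6.3, lips-9, ZC434.3 and mlt-10. The level of grl-5 in N2 was 34.8 FPKM with prp-31 RNAi and 14.8 with gfp RNAi. In smg-1 it was 44.3 FPKM with prp-31 RNAi and 153 with gfp RNAi. The prp-31 levels of the strains were thus close, and the gfp levels were not. Over the 6 genes the smg-1 level was 0.855 to 1.87 times the N2 level with prp-31 RNAi, and 6.20 to 10.3 times with gfp RNAi. The median log2 difference with prp-31 RNAi was 1.17 in N2 and -1.51 in smg-1.

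**Figure D5:**
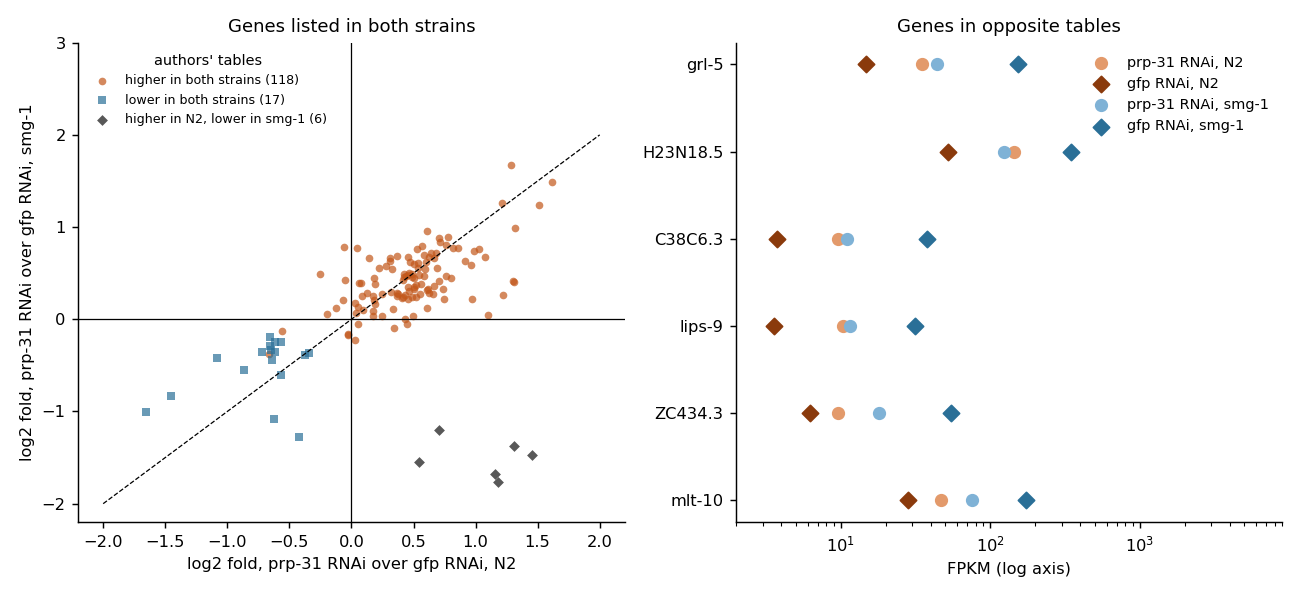
Left, log2 difference between prp-31 and gfp RNAi in smg-1 (vertical axis) against that in N2 (horizontal axis) for 141 genes listed in both strains, 1 point a gene; the dashed line marks equal differences. Right, levels (FPKM, log axis) in N2 and smg-1 of the 6 genes in opposite tables. The prp-31 circles of the strains lie close together, and the gfp diamonds lie apart, lowest in N2 and highest in smg-1.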

How the data were processed

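Levels are FPKM values that the authors deposited per library, made with Cufflinks and Cuffdiff per the submitters' processing notes. The sources used here do not give versions, aligner, genome build or annotation. The authors' deposited tables also hold pooled FPKM, a log2 fold change, a test statistic (score), P-values and q-values, which compare the 3 pooled knockdowns with gfp; the gfp library is in both kinds of value. Depth per library is unknown beyond a minimum stated in the labels, so no counting interval was given.

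The log2 difference used a pseudocount of 1 FPKM, with no test, as each group has 1 library. Alternatives were pseudocounts of 0.1 and 5, a minimum mean of 1 FPKM, zeros kept and a 1.5-fold threshold. Calculations used Python 3.11.15, numpy 2.4.6 and pandas 2.3.3 and were checked on simulated data. Ensembl release 115 gave symbols, introns and neighbours for 471 of 475 genes. A gene name that had been turned into a date was replaced by its gene ID.

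Members and lists were chosen with earlier results of these data known, and the added spliceosome list after values were seen. Genes were named by rule: the target, apoptosis and DNA damage genes, the 10 higher and 6 lower with public names and the largest differences, up to 3 of each list, and the extremes against other knockdowns, their table, 0, the other strain and abundance. Further list members are examples, chosen after their values were seen.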

Additional observations from a re-analysis of the deposited data

Results flagged for a closer look

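With prp-31 RNAi 7 genes listed in both strains lay on one side of gfp in N2 and on the other in smg-1, each by at least 0.25 on the log2 scale. With 1 library a group the difference was not tested. The log2 difference in N2 minus that in smg-1 was 2.95 for grl-5, 2.93 for H23N18.5, 2.83 for C38C6.3, 2.68 for lips-9, 2.10 for ZC434.3 and 1.91 for mlt-10, all 6 higher than gfp in N2 and lower than gfp in smg-1. For Y41G9A.10 it was -0.75. That gene had 8.78 FPKM with prp-31 RNAi and 10.7 with gfp RNAi in N2, and 16.7 with prp-31 RNAi and 11.6 with gfp RNAi in smg-1. The prp-6 and prp-8 levels of smg-1 also lay below gfp for the 6 genes: grl-5, for example, had 118 FPKM (prp-6 RNAi) and 64.2 FPKM (prp-8 RNAi), against 153 with gfp RNAi.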

How the results depend on the processing

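No paired analysis was possible because each group has 1 library and the labels carry no replicate numbers. The counts past a fixed fold depended on the scale. Genes at least 2-fold higher with prp-31 RNAi numbered 111, against 172 with a pseudocount of 0.1 and 49 with a pseudocount of 5, and 227 genes passed a 1.5-fold threshold. Genes at least 2-fold lower numbered 10, against 2 with a pseudocount of 5 and 45 at a 1.5-fold threshold. Genes with the highest level of the 3 knockdowns in prp-31 RNAi numbered 2, against 1 with a minimum mean of 1 FPKM. Genes differing by at least 1 log2 unit between strains numbered 7, against 13 with a pseudocount of 0.1. The 7 include ZK84.1 (1.05, N2 minus smg-1), which was above gfp in both strains. They do not include the flagged gene Y41G9A.10 (-0.75). The table medians, the 16 higher-table genes below gfp (12 to 18) and the lower-table gene above gfp moved less under these settings. Of 84 named genes, 77 stayed within 1.5-fold of their reported value with a pseudocount of 0.1 and 77 with a pseudocount of 5, and none changed direction. Library depth and scale could not be checked, since only listed genes have values.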
